A study of Mus musculus with 4 samples.

Results

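The 42 genes described here encode writers, readers and erasers of chromatin marks: histone acetyltransferases, bromodomain readers of acetylated histones, Polycomb subunits, histone methyltransferases and demethylases, and the enzymes and readers of DNA methylation. They were chosen by name, with earlier results of these data known. Each was matched by symbol to the probes of a mouse expression array that held 37003 gene or other names. The 42 genes had 109 of the 56605 probes that are not controls, and 92 of the 109 were tested. For each gene the brightest tested probe stands for the gene, and other probes are given for some genes only. In 18 of the 30 genes with more than 1 tested probe, another probe had the opposite sign, as described later. The level of a probe is its log2 processed signal minus the 75th percentile of its array, so a level of 0 means a signal equal to that percentile. Probes differ in how well they hybridise, so levels of different genes are not ranked.

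The cells were GC-1, a mouse spermatogonial line. Cells of the Hdac6 vector group (2 arrays) received a pCMV plasmid in which a CMV promoter drives murine Hdac6 with a myc/DDK tag, and cells of the empty vector group (2 arrays) received the empty vector. Both were harvested 48 h after transfection, as transfected cultures with no selected clone named in the labels. Nothing in the labels tells whether the 2 arrays of a group stand for 2 separate cultures, and every p-value therefore reflects the spread between these 4 samples alone, which may be technical. In such bulk samples, fewer expressing cells and less RNA per cell cannot be told apart.

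Acetyltransferases place acetyl groups on histone tails, where bromodomain proteins bind them, and deacetylases remove them. Polycomb complex 2 methylates histone H3 (the H3K27 mark) and Polycomb complex 1 binds that mark and ubiquitinates histone H2A, while H3K9 methyltransferases mark heterochromatin. DNA methyltransferases copy or set cytosine methylation, TET dioxygenases oxidise it and MBD proteins such as Mbd2 bind it. In the male germ line the de novo DNA methyltransferases with Dnmt3l set methylation before birth, and Brdt acts in spermatids. Hdac6 itself is a mostly cytoplasmic deacetylase whose best known substrate is tubulin.

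The Hdac6 probe, the check of the labels, was at 2.62 and 3.24 on the Hdac6 vector arrays, against 3.31 and 2.83 on the empty vector arrays. This is 0.909-fold (95% interval 0.578 to 1.43, limma adjusted p = 1.00, n = 2 per group), so the endogenous probe gave no measured rise. The sources used here do not give whether the vector's insert holds the stretch this probe reads. The arrays did not group by vector: Hdac6 vector 1 and empty vector 2 differed by at least 2-fold in 0.604% of 32594 probes, against 3.82% to 6.84% for the other 5 pairs of arrays. Whether the arrays were exchanged between groups cannot be told from the files, which bears on every difference below. Well above background were 64.3% and 61.0% of the spots on the Hdac6 vector arrays, against 66.4% and 65.1% on the empty vector arrays. Of the germ cell markers, 17 of 23 spermatogonial genes were tested, with Kit, Dazl, Ret and Tex101 not well above background on any array, and 5 of 15 meiotic genes, with Sycp3 and Dmc1 not well above background on any array. Of the markers of other cell types, tested were 8 of 13 for spermatids, 9 of 12 for Sertoli cells, 4 of 9 for Leydig cells, 10 of 11 for peritubular cells and fibroblasts, and 8 of 9 for macrophages and leukocytes. All 14 proliferation genes were tested. Changed (limma adjusted p under 0.05) were 0 of the 75 tested genes of these 8 lists. Picked out after their values were seen, the 3 with an unadjusted p under 0.05 were Dmrtb1 at 0.578-fold, Acta2 at 1.48-fold and Cd68 at 0.533-fold. The share of all tested genes with a limma unadjusted p under 0.05 was 1.83%.

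The sequences of 6 probes are shown first. Of these, 4 are Ezh2 probes, and the comparison of probes within a gene, described later, turns on where such probes lie. The brightest of the 5 Ezh2 probes, from base 2558, is not printed. The Dnmt1 and Tet1 probes do not enter that comparison, since each is the only tested probe of its gene. Each of the 6 has at least 1 reading frame without a stop codon over its 60 bases. They are written 5′ to 3′ in the sense of the transcript as the array files give them, with mm9 positions from the same files. The 4 Ezh2 probes start at bases 511, 752, 1454 and 2116 of the transcript and run on the minus strand of chr6, at chr6:47506086-47506145, chr6:47502445-47504139, chr6:47494464-47494523 and chr6:47482047-47482942. The second and the fourth span 1695 and 896 genomic bases with 60 bases of sequence and so cross an exon junction.
Ezh2 from base 511: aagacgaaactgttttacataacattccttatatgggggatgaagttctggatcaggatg
Ezh2 from base 752: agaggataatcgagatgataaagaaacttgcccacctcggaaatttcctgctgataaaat
Ezh2 from base 1454: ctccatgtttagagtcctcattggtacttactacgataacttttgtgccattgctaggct
Ezh2 from base 2116: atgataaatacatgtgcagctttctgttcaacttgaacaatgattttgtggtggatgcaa
The only Dnmt1 probe (chr9:20711973-20712341, minus strand) also crosses a junction, and the Tet1 probe (chr10:62276042-62276101, minus strand) is the 1 of 3 Tet1 probes that gave a signal above background.
Dnmt1 from base 4984: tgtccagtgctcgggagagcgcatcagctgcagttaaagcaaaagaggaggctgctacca
Tet1 from base 5298: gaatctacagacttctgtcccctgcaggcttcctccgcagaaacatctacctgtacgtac

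At least 1 probe of each of the 42 genes was detected in GC-1 cells. The chosen probe was well above background on all 4 arrays for 42 of 42, where the share over the 23470 tested genes was 93.1%. The level was above the 75th percentile on all 4 arrays for 30 genes (71.4%). The share was 45.3% of all tested genes and 62.2% of the 15629 with a mean level in the range of these genes. Below the 75th percentile on all 4 arrays were 8 genes: the acetyltransferases Ep300, Kat2b and Kat6b, the reader Brdt, the Polycomb ligase Ring1, the cofactor Dnmt3l, and Tet1 and Tet3. The remaining 4, Brd3, Kdm6b, Dnmt3b and Tet2, lay on either side of it. Of the 17 untested probes, 13 carried the name of an Ensembl transcript and 13 were not well above background on any array.

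**Figure D1:**
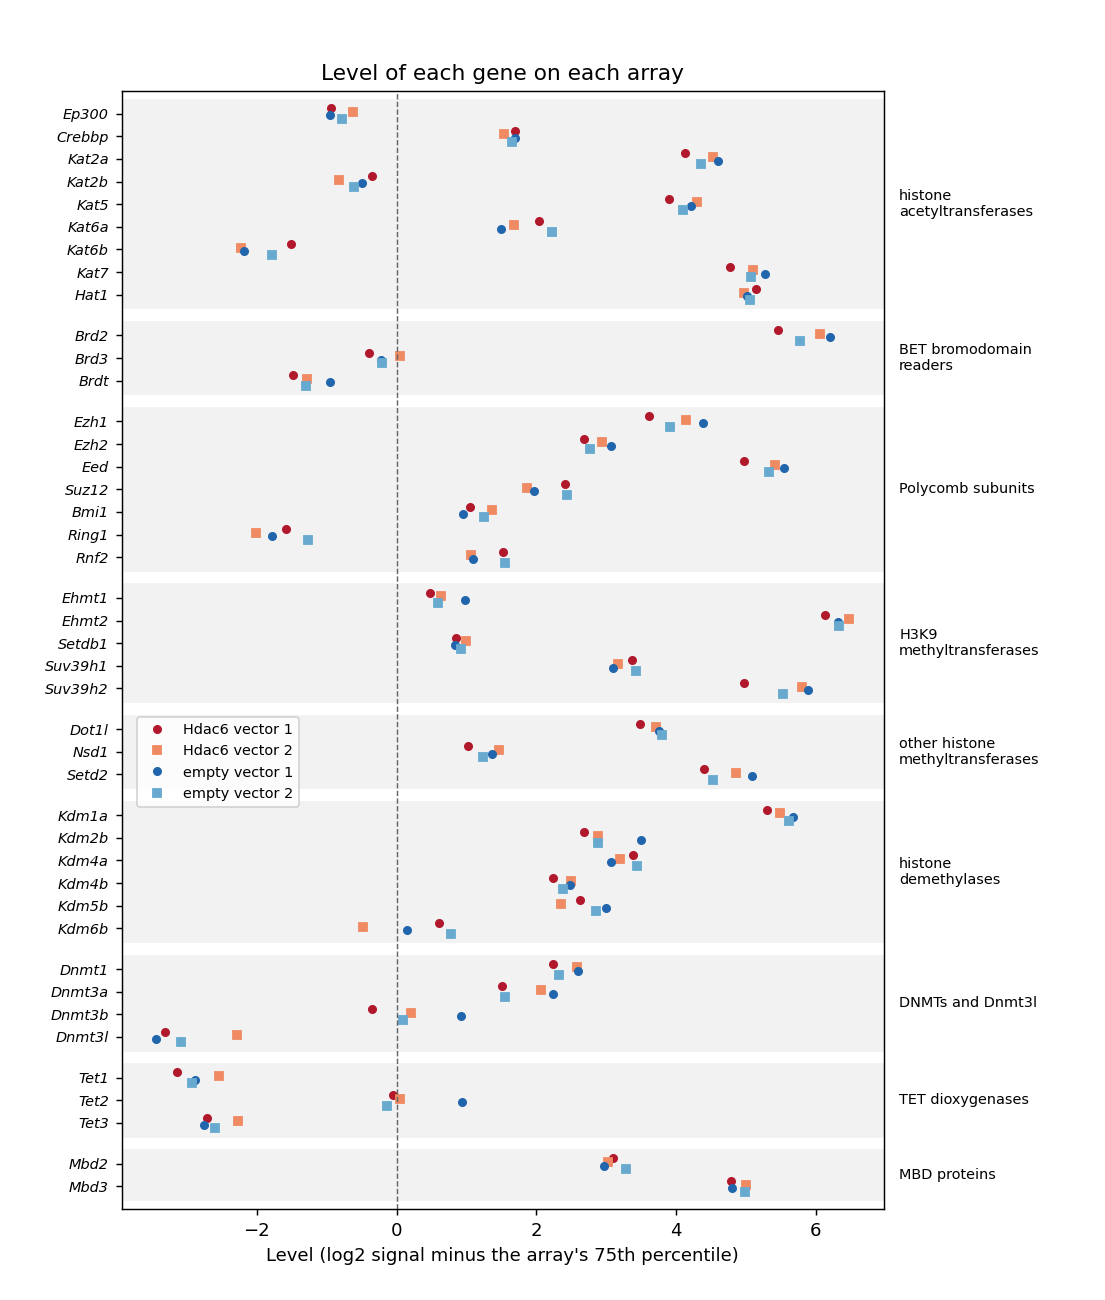
Level of the brightest tested probe of each of the 42 genes (log2 signal minus the array's 75th percentile, x axis) on the 4 arrays, by class. Points are single arrays, with Hdac6 vector arrays in red and orange and empty vector arrays in blue, and 30 genes lie right of the dashed line at 0 on all 4 arrays.

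None of the 42 genes passed the test between Hdac6 vector and empty vector cells. For most, the brightest probe was measured closely enough to bound its difference. The count of genes with a limma adjusted p under 0.05 was 0 of 42, where it was 2 of 23470 over all tested genes (0.00852%), and also 0 at an unadjusted p under 0.05, where the share of all genes was 1.83%. The smallest unadjusted p was 0.0937, for Kdm5b, and the smallest adjusted p 1.00. For 36 of the 42 genes (85.7%) the 95% interval of the brightest probe lay inside 2-fold either way. The share was 82.0% of the 15629 tested genes in the same range of levels. The exceptions, whose brightest probe allows a change of over 2-fold, were Suv39h2, Kdm2b, Kdm6b, Dnmt3b, Dnmt3l and Tet2. Dimmer tested probes of many of the 36 genes had intervals past 2-fold, such as those of a Kdm5b probe (0.939 to 3.05) and an Ezh1 probe (0.363 to 1.37). The same held for Ep300, Crebbp, Kat6b, Kat7, Hat1, Brd3, Brdt, Ezh2, Bmi1, Suv39h1, Dot1l, Setd2 and Dnmt3a. The bound therefore covers the brightest probe only. The groups did not overlap for 3 genes, all with the Hdac6 vector values below the empty vector values (Dot1l, Kdm1a and Kdm5b), and for 0 genes in the other direction. The shares of all tested genes were 12.9% and 12.3%, so the 3 of 42 (7.14%) are a smaller share than the background.

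The differences of the 42 genes lay mostly just below 0: 29 were negative and 13 positive (31.0% positive, against 50.7% of all tested genes), with a median log2 fold change of -0.06, against 0.00 for all tested genes and -0.02 for those in the same range of levels. On single arrays, Hdac6 vector 1 had the lowest value of the 4 for 23 genes and Hdac6 vector 2 for 9, while empty vector 1 had the highest for 18. The median turned positive (0.04) with scaling to the spike-in probes, which moved the median of all tested probes to 0.13 (0.02 with the percentile). Relative to the median of all tested probes, the genes' median was -0.08 with the percentile, the spike-in and the median scaling, which are equal by construction, -0.14 with normexp and -0.04 with quantile normalization.

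**Figure D2:**
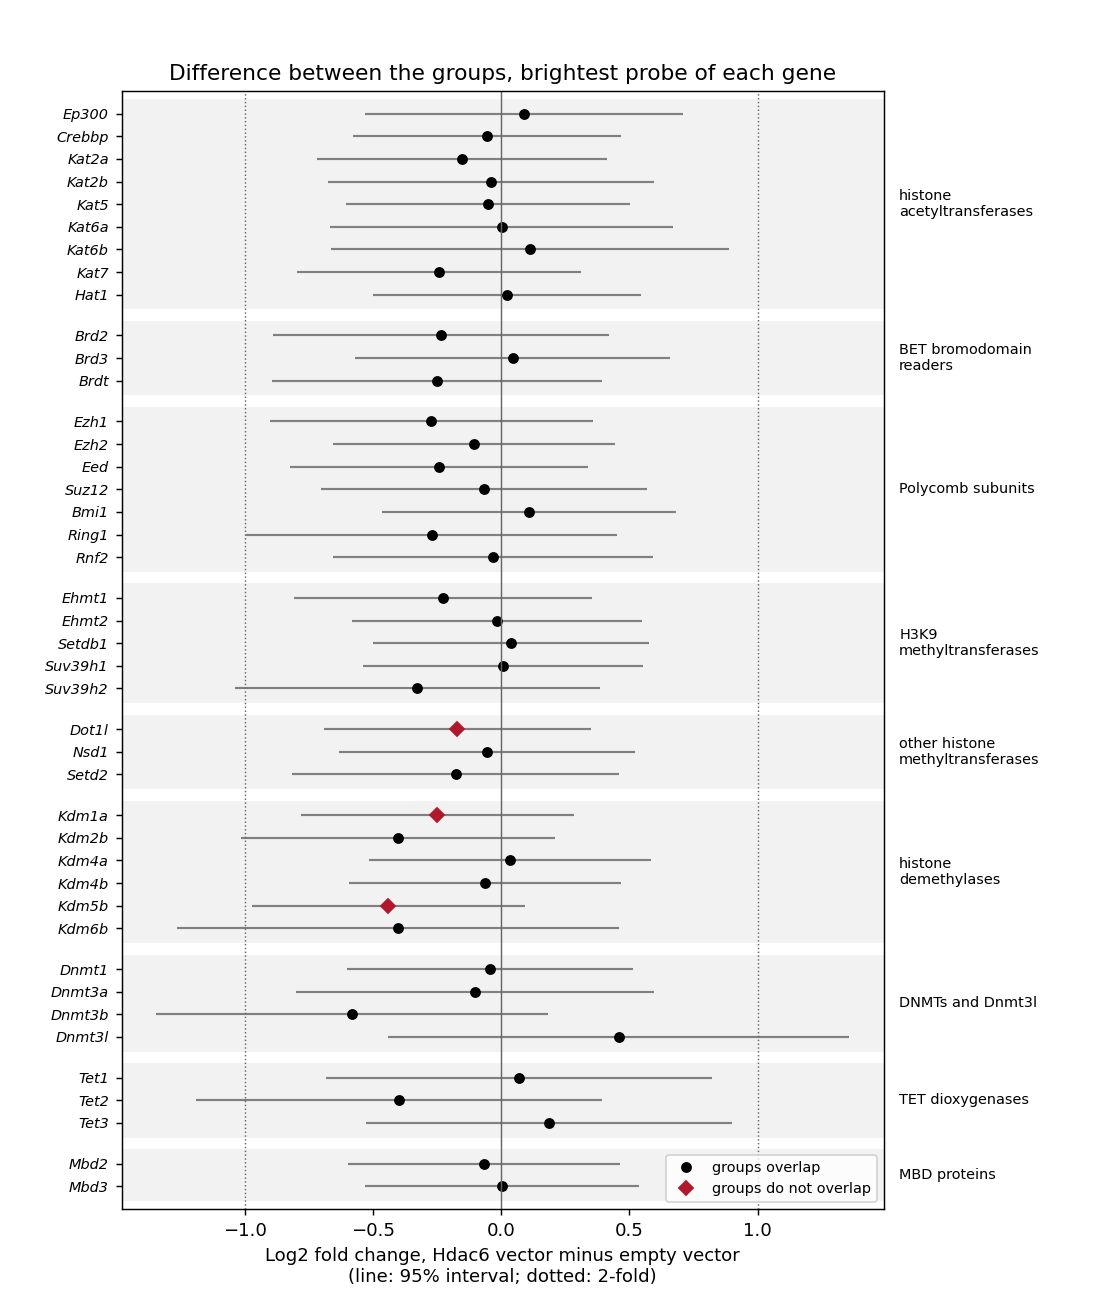
Log2 fold change of each gene, Hdac6 vector minus empty vector (x axis), with its 95% interval from limma (n = 2 arrays per group), by class. Every interval includes 0, and the red diamonds mark Dot1l, Kdm1a and Kdm5b, whose groups do not overlap.

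The 9 acetyltransferases spanned log2 fold changes of -0.24 to 0.11, and 0 of the 9 changed. Kat7, the catalytic subunit of the HBO1 complex that acetylates histone H3 and H4, was at 4.77 and 5.10 with the Hdac6 vector, against 5.28 and 5.08 with the empty vector (0.845-fold, 95% interval 0.575 to 1.24, limma unadjusted p = 0.347). Hdac6 vector 1 was the lowest of these arrays, and the other 3 lay within 0.20. Kat2a, the GCN5 subunit of the SAGA and ATAC coactivators, was at 4.12 and 4.53 with the Hdac6 vector, against 4.60 and 4.36 with the empty vector (0.899-fold, 0.607 to 1.33), again with Hdac6 vector 1 the lowest and the groups overlapping. The related coactivators Ep300 and Crebbp stood at 1.06-fold (0.692 to 1.64) and 0.963-fold (0.670 to 1.38), and Kat2b, the PCAF paralog of Kat2a, at 0.973-fold (0.626 to 1.51). Kat5, the TIP60 enzyme of the NuA4 complex, stood at 0.965-fold (0.658 to 1.42). Kat6a and Kat6b, a paralog pair that acetylates histone H3, stood at 1.00-fold (0.630 to 1.59) and 1.08-fold (0.631 to 1.85). Hat1, which acetylates newly made histone H4, averaged 5.06 ± 0.12 with the Hdac6 vector and 5.04 ± 0.02 with the empty vector (SD, n = 2 each). The log2 fold changes of Ep300, Crebbp, Kat2b, Kat5, Kat6a and Hat1 were within 0.09 of 0, and their signs turned under at least 1 of 4 other scalings or background corrections, of which median and spike-in scaling shift all genes alike.

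The BET readers bind acetylated histones through paired bromodomains, and 0 of 3 changed. Brdt, the testis-specific member, was detected in this spermatogonial line, at -1.48 and -1.28 with the Hdac6 vector and -0.96 and -1.30 with the empty vector. This is 0.841-fold (0.538 to 1.31, limma unadjusted p = 0.404), with empty vector 1 apart from the other 3 arrays. Brd2 averaged 5.76 ± 0.42 with the Hdac6 vector and 5.99 ± 0.30 with the empty vector (SD, n = 2 each), and Brd3 averaged -0.17 ± 0.32 with the Hdac6 vector and -0.22 ± 0.01 with the empty vector. The median of the class, -0.23, stayed negative under the 4 other scalings or background corrections but was 0.06 without Hdac6 vector 1.

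All 7 Polycomb genes were measured in GC-1 cells, both of complex 2 (Ezh1, Ezh2, Eed and Suz12) and of complex 1 (Bmi1, Ring1 and Rnf2), and 0 of 7 changed. Ezh1, the alternative methyltransferase of complex 2, was at 3.61 and 4.14 with the Hdac6 vector, against 4.38 and 3.91 with the empty vector (0.828-fold, 0.535 to 1.28, limma unadjusted p = 0.353). Eed, the subunit that binds the methylated lysine, was at 4.98 and 5.42 with the Hdac6 vector, against 5.55 and 5.33 with the empty vector (0.845-fold, 0.566 to 1.26). In both genes Hdac6 vector 1 was the lowest array, and Hdac6 vector 2 lay between the empty vector arrays. Ezh2, the main methyltransferase, stood at 0.929-fold (0.635 to 1.36), and Suz12, the scaffold of complex 2, at 0.955-fold (0.614 to 1.48). Of the ubiquitin ligase side, Bmi1 stood at 1.08-fold (0.725 to 1.61), Ring1 at 0.829-fold (0.502 to 1.37) and Rnf2 at 0.978-fold (0.635 to 1.51). For each of these 7 genes the larger of the 2 replicate gaps, up to 0.54 for Suz12 in log2, exceeded the difference between the groups.

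Of the 5 H3K9 methyltransferases 0 changed. Suv39h2, a pericentromeric enzyme first described as enriched in testis, was at 4.97 and 5.81 with the Hdac6 vector and 5.89 and 5.54 with the empty vector (0.797-fold, 0.487 to 1.31, limma unadjusted p = 0.326). Hdac6 vector 1 stood 0.84 below Hdac6 vector 2, more than the groups differed, and without it the log2 difference was 0.09. Its paralog Suv39h1 averaged 3.27 ± 0.15 with the Hdac6 vector and 3.26 ± 0.23 with the empty vector (SD, n = 2 each). Ehmt1 and Ehmt2, which form the GLP and G9a dimer that dimethylates H3K9 in euchromatin, were both measured: Ehmt1 was at 0.48 and 0.63 with the Hdac6 vector and 0.98 and 0.59 with the empty vector (0.855-fold, 0.571 to 1.28), while Ehmt2 stood at 0.988-fold (0.668 to 1.46). Setdb1, the enzyme recruited by KRAB zinc finger proteins, stood at 1.03-fold (0.706 to 1.49).

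The 3 other methyltransferases were Dot1l (H3K79), Nsd1 (H3K36) and Setd2 (H3K36 trimethylation along transcribed genes), and 0 of 3 changed. Dot1l was at 3.49 and 3.72 with the Hdac6 vector, against 3.75 and 3.80 with the empty vector (0.888-fold, 0.619 to 1.27, limma unadjusted p = 0.475). The groups did not overlap, but Hdac6 vector 2 lay 0.03 below empty vector 1, and 2 of the 3 other tested Dot1l probes had the opposite sign. Nsd1 stood at 0.963-fold (0.645 to 1.44) and Setd2 at 0.884-fold (0.568 to 1.38).

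The demethylases are singled out for having the lowest median of the classes with over 3 genes, a log2 fold change of -0.33, and 0 of 6 changed. That median lay between -0.42 and -0.11 under the 10 alternatives that can move a fold change, and the choice of the class by its median makes this a description only. Kdm5b, which removes methyl groups from H3K4, was at 2.62 and 2.35 with the Hdac6 vector, against 3.002 and 2.85 with the empty vector. This is 0.737-fold (0.510 to 1.07, limma unadjusted p = 0.0937, adjusted p = 1.00), with both Hdac6 vector arrays below both empty vector arrays. Of the 4 other tested Kdm5b probes 3 had the opposite sign, the furthest at 1.69-fold (0.939 to 3.05), a dim probe named by an Ensembl transcript at chr1:136503116-136503175. Kdm2b, an H3K36 demethylase that also brings Polycomb complex 1 to CpG islands, was at 2.68 and 2.89 with the Hdac6 vector, against 3.49 and 2.88 with the empty vector (0.756-fold, 0.495 to 1.16, limma unadjusted p = 0.170). Empty vector 1 stood apart there, and Hdac6 vector 2 and empty vector 2 differed by 0.01. Kdm1a, the LSD1 enzyme of the CoREST complex, was at 5.30 and 5.49 with the Hdac6 vector, against 5.67 and 5.61 with the empty vector (0.842-fold, 0.582 to 1.22), without overlap.

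Kdm6b, which removes H3K27 methylation, had replicates further apart than any difference between groups among the demethylases. It was at 0.61 and -0.48 with the Hdac6 vector, a gap of 1.09, against 0.15 and 0.77 with the empty vector (0.756-fold, 0.416 to 1.38, limma unadjusted p = 0.319). Hdac6 vector 1 lay between the empty vector arrays and Hdac6 vector 2 below them. A further probe, listed under an older name that the reference table gives as a synonym of Kdm6b, lies on the opposite strand (chr11:69216103-69216162, plus) and was left out. The H3K9 and H3K36 demethylases Kdm4a and Kdm4b stood at 1.02-fold (0.700 to 1.50) and 0.957-fold (0.663 to 1.38).

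Among the DNA methyltransferase genes 0 of 4 changed, and this class held both extremes of the 42. Dnmt1, the maintenance enzyme that copies methylation after replication, was at 2.24 and 2.58 with the Hdac6 vector and 2.59 and 2.32 with the empty vector (0.970-fold, 0.659 to 1.43). Dnmt3a, a de novo enzyme, averaged 1.79 ± 0.40 with the Hdac6 vector and 1.89 ± 0.49 with the empty vector (SD, n = 2 each). Dnmt3b, the other de novo enzyme, was at -0.35 and 0.21 with the Hdac6 vector, against 0.93 and 0.09 with the empty vector. At 0.669-fold (0.394 to 1.14, limma unadjusted p = 0.120, adjusted p = 1.00) it had the lowest fold of the 42 genes, yet Hdac6 vector 2 lay above empty vector 2, and the log2 difference without empty vector 1 was -0.16. The 1 other tested Dnmt3b probe stood at 1.25-fold (0.730 to 2.15). Dnmt3l, the cofactor of the de novo enzymes that has no catalytic activity of its own, was at -3.31 and -2.29 with the Hdac6 vector, against -3.44 and -3.08 with the empty vector. Its 1.37-fold (0.737 to 2.56, limma unadjusted p = 0.279) was the highest of the 42 and rested on Hdac6 vector 2, since without that array the log2 difference was -0.05.

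Of the TET dioxygenases 0 of 3 changed. Tet2 was at -0.05 and 0.05 with the Hdac6 vector and 0.93 and -0.13 with the empty vector (0.759-fold, 0.439 to 1.31, limma unadjusted p = 0.286). Empty vector 1 stood alone, 1.07 above empty vector 2, and without it the log2 difference was 0.14. The 2 other tested Tet2 probes had the opposite sign. Tet1, read by the probe printed above, was at -3.14 and -2.55 with the Hdac6 vector and -2.88 and -2.93 with the empty vector (1.05-fold, 0.622 to 1.77). Its 2 other probes were not well above background on any array, and 1 of them, from base 6892, lies nearer the 3′ end. Detection of Tet1 thus rests on 1 probe. Tet3 averaged -2.49 ± 0.31 with the Hdac6 vector and -2.68 ± 0.11 with the empty vector (SD, n = 2 each). The MBD proteins Mbd2 and Mbd3, which take each other's place in the NuRD deacetylase complex, stood at 0.955-fold (0.661 to 1.38, limma unadjusted p = 0.785) and 1.00-fold (0.692 to 1.45). Mbd2 was at 3.09 and 3.02 with the Hdac6 vector and 2.97 and 3.28 with the empty vector.

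The sign of a difference near 0 often varied between probes of the same gene. More than 1 tested probe was available for 30 of the 42 genes, and in 18 of the 30 at least 1 other probe had the sign opposite to the brightest one (3892 of 7668 such genes on the whole array, 50.8%). The brightest probe was the one nearest the 3′ end in 29 of the 30, with Ep300 as the exception. For Ezh2 the brightest probe, which starts at base 2558, had a log2 fold change of -0.11, and the 4 probes printed above had values between 0.07 and 0.52. Kdm5b probes ranged from -0.44 to 0.76 and Dnmt3b probes from -0.58 to 0.33. Ep300 probes ranged from -0.38 to 0.09 and Kat7 probes from -0.24 to 0.21. The other genes with probes of both signs were Crebbp, Kat2a, Kat5, Hat1, Brdt, Rnf2, Dot1l, Setd2, Kdm4a, Kdm4b, Tet2, Tet3 and Mbd2. Changed were 0 of the 92 tested probes of these genes, and 0 had an unadjusted p under 0.05, where 4 of all 35215 tested probes changed (0.0114%).

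**Figure D3:**
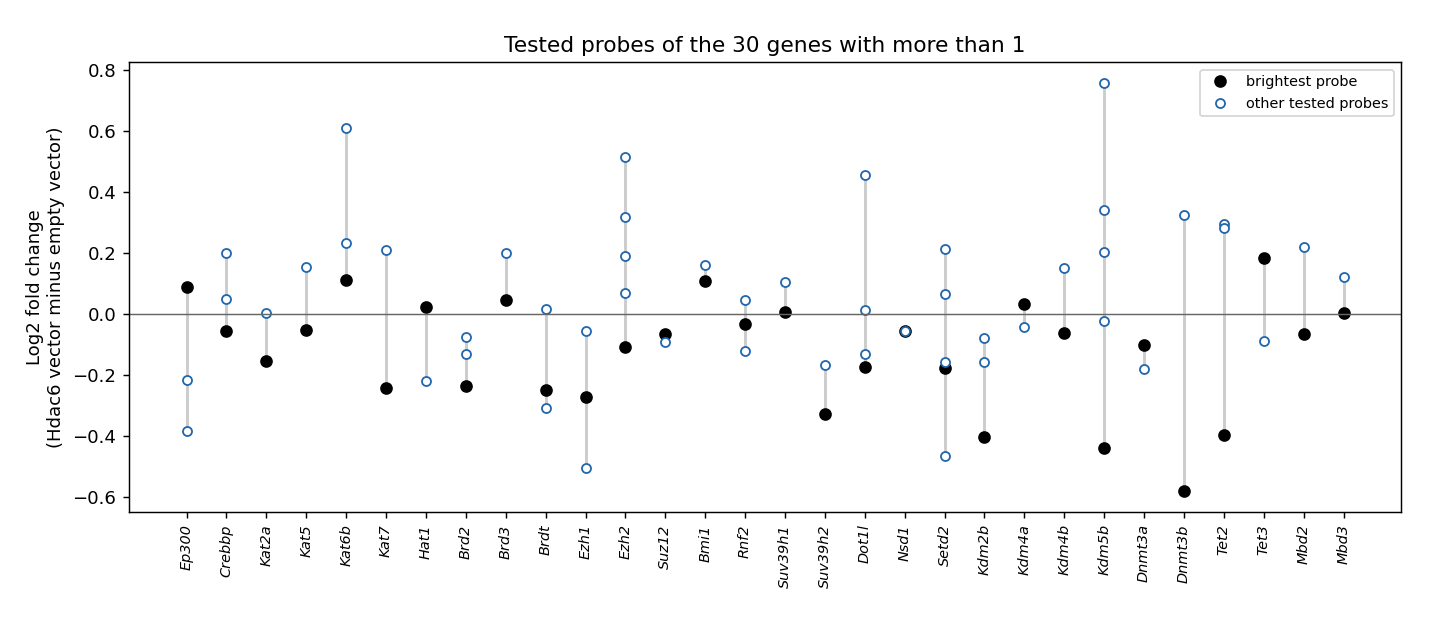
Log2 fold change, Hdac6 vector minus empty vector (y axis), of every tested probe of the 30 genes with more than 1 (x axis). Filled points are the brightest probe of a gene and open points the others, and the vertical lines join the lowest and highest, which lie on opposite sides of 0 for 18 genes.

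The Ezh2 probes show which arrays set such differences. On the probe at base 752 the values were 1.09 and 0.24 with the Hdac6 vector, against -0.37 and 1.07 with the empty vector, so that 1 array of each group was high and 1 low. On the probe at base 1454 they were 0.90 and 0.83 with the Hdac6 vector, against -0.17 and 0.87 with the empty vector, with empty vector 1 alone low. On the probe at base 2558 the order turned, with 2.68 and 2.95 for the Hdac6 vector, against 3.08 and 2.76 for the empty vector. Dnmt3a followed the same course, its 5′ minus 3′ gap (centred on the mean of the 4 arrays) being 0.57 and -0.64 with the Hdac6 vector, against -0.82 and 0.90 with the empty vector. Suz12 ran the opposite way, at -0.56 and 0.54 with the Hdac6 vector, against 0.62 and -0.60 with the empty vector. The pattern was noticed after the values were seen, and Dnmt3a and Suz12 were chosen as examples of either course after their values were seen.

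**Figure D4:**
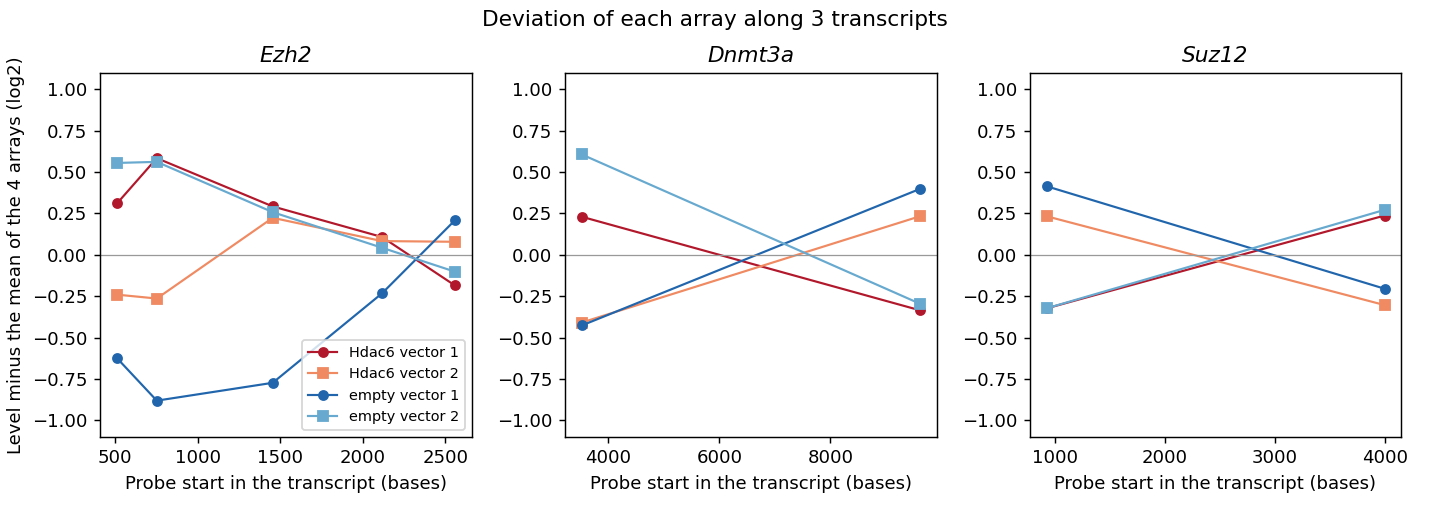
Deviation of each array from the mean of the 4 arrays (log2, y axis) for the tested probes of 3 transcripts by their start in the transcript (bases, x axis). In Ezh2 and Dnmt3a, Hdac6 vector 1 and empty vector 2 (dark red and light blue) lie above 0 at the 5′-most probe and below it at the 3′-most, and in Suz12 the reverse.

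Over the 22 transcripts of these genes with at least 2 tested probes, the level of the 5′-most probe minus that of the 3′-most, centred on each transcript's mean over the 4 arrays, had a median of 0.35 on Hdac6 vector 1 and -0.10 on Hdac6 vector 2, against -0.26 on empty vector 1 and 0.14 on empty vector 2. The mean of the Hdac6 vector arrays exceeded that of the empty vector arrays for 17 of the 22 transcripts (77.3%, against 74.4% of the 4442 such transcripts on the whole array). Hdac6 vector 1 and empty vector 2 both lay above the other pair for 12 of the 22 transcripts (54.5%) and both below for 4 (18.2%), where the shares of all 4442 were 32.3% and 23.0%. The 22 include Ezh2, Dnmt3a and Suz12, in which the pattern was noticed, and without them the counts were 10 and 3 of 19. The medians of all 4442 were 0.12 and 0.01 for the Hdac6 vector and -0.07 and -0.06 for the empty vector. The part of RNA quality or labelling in these gaps was not tested.

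**Figure D5:**
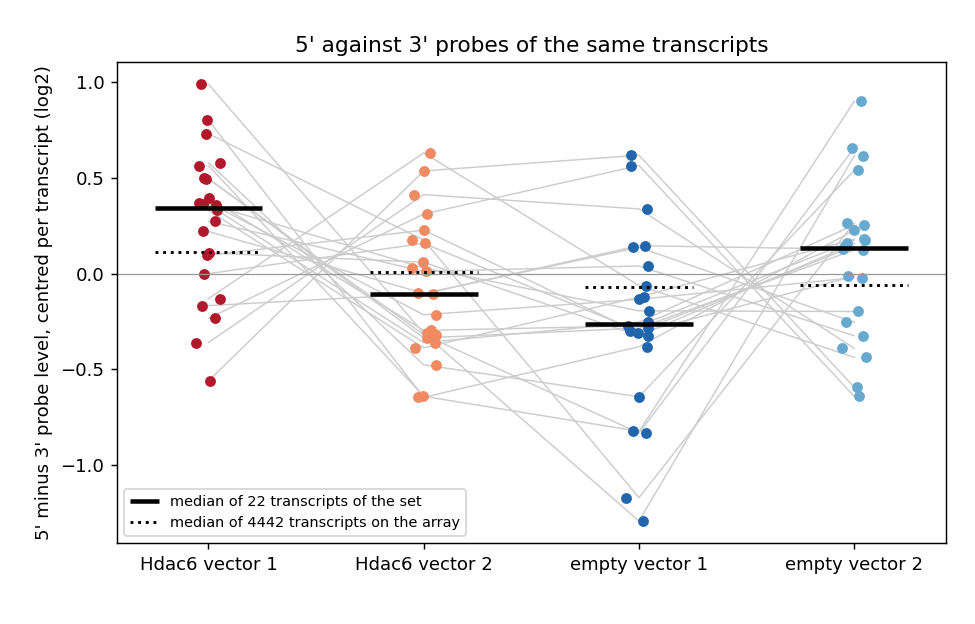
Level of the 5′-most minus the 3′-most tested probe of a transcript, centred on the transcript's mean over the 4 arrays (log2, y axis), by array. Points are the 22 transcripts of these genes, grey lines join a transcript's values, solid bars are their medians (0.35 and -0.10 for the Hdac6 vector, -0.26 and 0.14 for the empty vector) and dotted bars the medians of 4442 transcripts.

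The other genes of the same pathways were measured beside them, and none passed the test. Of 148 genes in 6 lists 146 were tested, 0 changed and 0 had an unadjusted p under 0.05. Their log2 fold changes were negative for 104 and positive for 42, with a median of -0.10 that turned to 0.01 with scaling to the spike-in probes, and the groups did not overlap for 31 genes on the lower side and 8 on the higher side (21.2% and 5.48%, against 12.9% and 12.3% of all tested genes). In the list of 25 acetyltransferase partners and other acetyltransferases, 21 were negative, and the smallest unadjusted p belonged to Epc1, a NuA4 scaffold, at 0.718-fold (0.478 to 1.08), Brpf3 at 0.704-fold (0.438 to 1.13) and Ncoa1 at 0.713-fold (0.450 to 1.13). Of 28 accessory Polycomb genes 18 were negative, with Asxl1 at 0.775-fold (0.520 to 1.16), the histone chaperone Rbbp4 at 1.25-fold (0.850 to 1.83) and Pcgf6 at 0.817-fold (0.551 to 1.21) first by p. Of 34 other histone methyltransferases 24 were negative, led by the H4K20 enzyme Kmt5b at 0.738-fold (0.451 to 1.21), the H3K4 enzyme Setd1a at 0.774-fold (0.507 to 1.18) and Setdb2 at 0.793-fold (0.539 to 1.17).

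Of 14 heterochromatin partners 9 were negative, and Atf7ip, the partner of Setdb1, had the smallest unadjusted p of the 6 lists (0.0781), at 1.66 and 1.44 with the Hdac6 vector, against 2.02 and 2.01 with the empty vector (0.725-fold, 0.503 to 1.05). It was followed by the Ehmt1 and Ehmt2 partners Wiz at 0.832-fold (0.586 to 1.18) and Zfp644 at 0.833-fold (0.529 to 1.31). Of 19 other demethylases 15 were negative, with Jmjd1c at 0.743-fold (0.473 to 1.17), the CoREST subunit Rcor1 at 0.787-fold (0.535 to 1.16) and Kdm2a at 0.794-fold (0.509 to 1.24). Of 26 tested partners and readers of DNA methylation 17 were negative, with the cytidine deaminase Apobec1 at 0.711-fold (0.471 to 1.07), the NuRD subunit Mta1 at 1.42-fold (0.849 to 2.37) and the reader Zbtb38 at 0.739-fold (0.467 to 1.17). The piRNA pathway genes Tdrd9 and Mael were not tested, since neither was well above background on both arrays of a group.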

How the data were processed

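Per the file headers, spot intensity was extracted with Feature Extraction 11.5.1.1 (protocol GE1_1105_Oct12, build mm9), which subtracted background and spatial trends from each array's intensity and left the arrays unscaled against each other. The authors also deposited a table of log2 values, 1 row per gene name, used as an alternative only. The sources used here do not give how it was computed. For the 25183 names with 1 probe it equals log2 intensity plus a constant per array in 99.79% to 99.92% of rows (tolerance 0.01), which fixes its scale, direction and centring. Its column medians were -3.71 and -3.68 for the Hdac6 vector, and -3.78 and -3.67 for the empty vector. All 4 arrays shared 1 slide and 1 scan time.

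For 300 probes printed on 10 spots each, the log2 processed intensity is the mean without outlier spots. Each array's 75th percentile over 56605 probes was then subtracted. That percentile was 815.0 and 452.6 on the Hdac6 vector arrays, and 665.8 and 692.8 on the empty vector arrays. The number of arrays limits the precision. Names came from the files, updated through a RefSeq table (GRCm38.p6, names only). A probe was tested if the scanner software marked it well above background on both arrays of at least 1 group (35215 probes, 23470 genes or other names). The groups were compared with limma 3.58.1 in R 4.3.3 (lmFit, eBayes with a trend), two-sided, Benjamini-Hochberg adjusted over all tested probes, with 2 residual degrees of freedom and 7.07 from the shared spread. The fit was tested on simulated data of 35215 probes. It recovered 1 of 50 changes of 2-fold, 33 of 50 of 4-fold, 48 of 50 of 8-fold and 50 of 50 of 16-fold. In these data 3 unchanged probes were called. Not passing the test therefore does not by itself exclude a 2-fold change. Fold changes are Hdac6 vector over empty vector.

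The genes, lists, classes and rules were chosen with earlier results of these data known. All 42 genes are named. Given array by array are those with the smallest unadjusted p of a class (2 in classes of over 3 genes), those with no overlap at a log2 fold change of 0.5 or more, and those whose replicates differ by 1 or more. Other genes given array by array were added after their values were seen. Of each other chromatin list, 3 genes by unadjusted p are given as values. Alternatives were normexp (offset 50), median, spike-in and quantile scaling, 2 filters, no trend, mean over probes, the deposited table, a replicate block and each array left out. Same-numbered arrays deviated oppositely (correlation -0.38 over 32594 probes).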

Additional observations from a re-analysis of the deposited data

Results flagged for a closer look

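Outside the comparison, 3 items with a value on an Hdac6 vector array above both empty vector values were flagged. They are an untested Suz12 probe, an untested Mbd2 probe and the Setd2 row of the deposited table. Other untested probes, not well above background on any array, also had Hdac6 vector values above the empty vector values. The Suz12 and Mbd2 probes below were picked for being well above background on an Hdac6 vector array and on no empty vector array, so the choice sets their direction. An untested Suz12 probe named by an Ensembl transcript was well above background on Hdac6 vector 1 alone. It was at -1.87 and -6.78 with the Hdac6 vector, against -6.14 and -5.90 with the empty vector, and the higher Hdac6 vector value exceeded the higher empty vector value by 4.03 (log2), while Hdac6 vector 2 was the lowest of the 4 arrays. An untested Mbd2 probe named by an Ensembl transcript was likewise well above background on Hdac6 vector 1 alone, at -4.86 and -6.37 with the Hdac6 vector, against -6.43 and -6.22 with the empty vector, a gap of 1.36, with Hdac6 vector 2 between the empty vector arrays. In the other direction, an untested Dnmt3l probe named by an Ensembl transcript was well above background on empty vector 2 alone, at -5.99 and -5.31 with the Hdac6 vector, against -6.41 and -5.20 with the empty vector.

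In the deposited table the Setd2 row read -0.41 and 0.71 with the Hdac6 vector, against -1.39 and -1.61 with the empty vector, a log2 difference of 1.65, where the brightest Setd2 probe gave -0.18. The table's Mbd2 row ran the other way, at -0.18 and 1.66 with the Hdac6 vector, against 1.79 and 1.91 with the empty vector, a log2 difference of -1.11, where the brightest Mbd2 probe gave -0.07. The table's rows for genes with a dim probe equalled the mean over those probes that were well above background on that array, plus the array's constant, in 46 of 46 values of 14 of these genes (tolerance 0.01). For Setd2, 4 of 5 probes entered on Hdac6 vector 1 and 3 of 5 on Hdac6 vector 2, against 5 of 5 on each empty vector array. For Mbd2, 3 of 4 probes entered on Hdac6 vector 1, the untested Mbd2 probe described above among them. On Hdac6 vector 2 and on each empty vector array, 2 of 4 Mbd2 probes entered, without that probe. What raised the single probes on Hdac6 vector 1 was not tested.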

How the results depend on the processing

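The count of changed genes stayed at 0 of 42 under each of the 15 alternatives run, with adjusted p no lower than 0.232 (Dnmt3b, without empty vector replicate 2). An unadjusted p under 0.05 was reached by Dnmt3b with normexp, by Setd2 in the deposited table, and, with an array left out, by Dnmt3l (without Hdac6 vector 1), Suv39h2 (without Hdac6 vector 2), Kdm6b (without empty vector 1), and Dnmt3b, Kdm2b and Tet2 (without empty vector 2). The log2 fold changes of Kat7, Brdt, Eed, Ring1, Ehmt1, Kdm1a, Kdm2b and Dnmt3b kept their sign under the 10 alternatives that can move a fold change. The other 5 keep the fold of any probe with values on all 4 arrays, as the chosen probes of the 42 genes have. Among the genes that kept their sign, Kat7, Brdt and Dnmt3b each had another tested probe of the opposite sign. Eed, Ring1, Ehmt1 and Kdm1a had only 1 tested probe, so no other probe could differ. The other 34 genes turned sign in at least 1 of the 10, and 21 did so under at least 1 of 4 scalings or background corrections, of which median and spike-in scaling shift all genes alike.

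Among all tested probes 4 changed (4 higher, 0 lower), against 29 with normexp (18 higher, 11 lower), 0 with median scaling (726 at an unadjusted p under 0.05), 2 with quantile normalization, 2 with no trend, 19 (19 higher) in the deposited table, and 0 to 302 with an array left out: 0 without Hdac6 vector 1 or without Hdac6 vector 2 (1420 and 654 at an unadjusted p under 0.05), 12 without empty vector 1 and 302 (181 higher, 121 lower) without empty vector 2. With the replicate number as a block 22 changed (13 higher, 9 lower). The same-numbered arrays share only a number in the labels. With the pairing crossed, chosen after seeing the data, 15 changed, with 0 of the 42 genes among them. An unadjusted p under 0.05 by limma was reached there by 3 of the 42 genes and by 1888 of all 35215 tested probes.

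The groups did not overlap for 3 genes, all lower (25.2% of all tested genes), against 6 lower with normexp (19.8%), 9 lower with median (28.6%), 1 higher with spike-in (11.3%) and 6 lower with quantile scaling (28.0%), 8 with the mean over probes (7 lower, 25.8%), 17 in the deposited table (14 lower, 29.8%) and 12 to 28 with an array left out, where 1 array faces 2 (52.1% to 67.2%). The median over the genes, -0.06, was -0.0810 with normexp, -0.16 with median, 0.0443 with spike-in and -0.0413 with quantile scaling, -0.0266 with the mean over probes, -0.10 in the deposited table and -0.204 to -0.0378 with an array left out. Of the other chromatin genes 1 changed in the deposited table, Naa60, at a log2 difference of 4.20 (limma adjusted p = 0.0160), where its brightest probe stood at 0.971-fold. The cause of these shifts was not tested. With 2 arrays per group the standard error of a gene's log2 fold change had a median of 0.26 over the 42 genes.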
